A study of Homo sapiens with 3 samples.

Results

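The 10 genes described here serve glutathione metabolism, the thioredoxin system and the NRF2 response: GCLC, GCLM, GSTP1, GPX4, TXN, TXNRD1, PRDX1, SRXN1, NQO1 and HMOX1. They were chosen by name, with earlier results of these data known, and a gene without a row in a file was counted as 0 there. A row was found for 9 of the 10, among 33423 genes with a row in any file. Expression was measured by Drop-seq, in which single cells are caught in droplets with barcoded beads and each captured mRNA molecule carries a unique molecular identifier (UMI). The 3 libraries came from 2 prostate cancer cell lines, LNCaP and VCaP, both labelled as sensitive to enzalutamide (ENZ), a drug that blocks the androgen receptor. LNCaP–ENZ168 held LNCaP cells kept in 10 µM ENZ for 168 h. VCaP–ENZ48 held VCaP cells kept in 10 µM ENZ for 48 h, and VCaP parental held VCaP cells given 0.1% DMSO, the vehicle, for 48 h. The LNCaP cells grew in RPMI 1640 and the VCaP cells in DMEM, so that line, exposure time and medium differ together and cannot be told apart. LNCaP–ENZ168 and VCaP parental differ in drug as well, and there is no LNCaP library without ENZ. Comparisons of LNCaP–ENZ168 with either VCaP library are called between the lines for short. Each group is 1 library, so differences have no replicate check, no statistical test was made, and the 95% intervals cover counting error only.

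Cells defend themselves against oxidants and reactive chemicals with systems that all draw on NADPH. Glutathione is made by the glutamate-cysteine ligase, whose catalytic subunit is GCLC and whose modifier subunit is GCLM, and it is spent by transferases such as GSTP1 and by peroxidases such as GPX4. Thioredoxin (TXN) reduces protein disulfides and feeds peroxiredoxins such as PRDX1, and thioredoxin reductase (TXNRD1) restores it. NRF2, the transcription factor encoded by NFE2L2, is held down by KEAP1 until oxidants or electrophiles release it, and it then binds antioxidant response elements together with small MAF proteins. NQO1, HMOX1, SRXN1, TXNRD1, GCLM and GCLC are among its best known targets. In prostate cancer the GSTP1 promoter is commonly methylated and silent, and LNCaP is a standard example.

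The core of the antioxidant response element reads TGACNNNGC, and it was searched on both strands in the 250 bases before each RefSeq gene start of GRCh38.p14. Promoters were at hand for 8 of the 10 genes, with 11 starts in all; PRDX1 and HMOX1 were not among them. A core was found at 4 of these 11 starts, which belong to GCLM, GSTP1 and TXNRD1. Of all 35116 promoters in the same table, 10.9% held a core in a window of that length. The 4 matches are shown because they hold the letters searched for. Each line gives 10 bases on either side of the match along the gene's own strand, 5′ to 3′, and the capitals mark the core or its reverse complement.
GCLM, chr1:93909446-93909474, minus strand: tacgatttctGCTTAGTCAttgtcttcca
GSTP1, chr11:67583736-67583764, plus strand: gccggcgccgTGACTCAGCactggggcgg
TXNRD1, first start, chr12:104215670-104215698, plus strand: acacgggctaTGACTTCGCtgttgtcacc
TXNRD1, second start, chr12:104286920-104286948, plus strand: gtggatttctGCTTTGTCAttctgactct
The matches began 34 bases before the RefSeq start in GCLM, 66 in GSTP1, and 99 and 102 at the 2 starts of TXNRD1. The Gencode gene of TXNRD1, given with the levels, begins at the first RefSeq start, and the match at the second start lies within it. Those of GSTP1 and GCLM start elsewhere. By their coordinates the GSTP1 match lies within the gene and the GCLM match reaches the first base of GCLM. GCLM and the second TXNRD1 start carried the core as its reverse complement. The same windows held 36 CpG dinucleotides in GCLM, 28 in GSTP1, 24 at the first and 9 at the second start of TXNRD1, against a median of 11 over all promoters. TXN held 32, GCLC 24, SRXN1 38, NQO1 9 and the 3 starts of GPX4 between 33 and 37. A match is a run of letters and was not shown to be bound, and no match says only that the letters are not in this window.

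After filtering, 944 to 997 cells per library were kept, with 6313283 to 19515202 UMIs. The median cell had 5389 UMIs in LNCaP–ENZ168, 17817 in VCaP parental and 11224 in VCaP–ENZ48. No kept barcode was shared between libraries, and 1 barcode of 1000 was shared by each pair before filtering. Barcodes ending in the letter N made up 21.2% in LNCaP–ENZ168, 86.0% in VCaP parental and 86.9% in VCaP–ENZ48. What the N stands for was not examined. The luminal prostate markers were detected in every library. ERG, which VCaP expresses from a gene fusion, had 2052 UMIs in VCaP parental, 816 in VCaP–ENZ48 and 0 in LNCaP–ENZ168. PTPRC, CD3E, KRT5, TP63 and COL1A2 had at most 1 UMI in any library, and the other basal, leukocyte, stromal and endothelial markers at most 25.

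The levels are UMIs per 1000000 UMIs of the kept cells (CPM), and ratios are log2 ratios of CPM + 1. Their intervals leave out the + 1, so that they can lie further from 0 than the ratio of a gene at few CPM. The background was taken from genes whose mean over the 2 libraries compared was 10 CPM or more. From VCaP parental to VCaP–ENZ48, 8.19% of 7729 genes were at least 2-fold higher and 6.77% at least 2-fold lower. For LNCaP–ENZ168 over VCaP–ENZ48 the shares were 35.5% higher and 11.1% lower of 8854 genes. For LNCaP–ENZ168 over VCaP parental they were 33.6% higher and 10.8% lower of 8526 genes. The median log2 ratio over these genes was -0.066, 0.65 and 0.57, in the same order, so a gene with a ratio near 0.6 between the lines sits in the middle of the transcriptome. TMM scaling shifted the 3 medians by -0.27, -0.55 and -0.85, and median-of-ratios scaling by -0.21, -0.51 and -0.75. Leaving mitochondrial and ribosomal protein genes out of the totals shifted them by 0.18, -0.28 and -0.12. The share of higher genes among all genes past 2-fold moved with it, from 54.8% to between 31.4 and 69.7% in the VCaP pair, from 76.3% to as low as 50.1% for LNCaP–ENZ168 over VCaP–ENZ48, and from 75.7% to as low as 31.9% for LNCaP–ENZ168 over VCaP parental. Member ratios are therefore also given relative to the median. The comparisons share libraries and are not independent.

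The members did not differ in 1 direction. LNCaP–ENZ168 held far more NQO1 than either VCaP library, more PRDX1 and GCLM, and far less TXN. TXNRD1 was past 2-fold higher than in VCaP–ENZ48 but not than in VCaP parental. GCLC was higher and GPX4 lower than in either VCaP library, both less than 2-fold apart on the CPM scale. Within VCaP, the library with ENZ held less TXN and TXNRD1 than VCaP parental, and none of the 6 members tested was 2-fold apart on that scale.

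**Figure D1:**
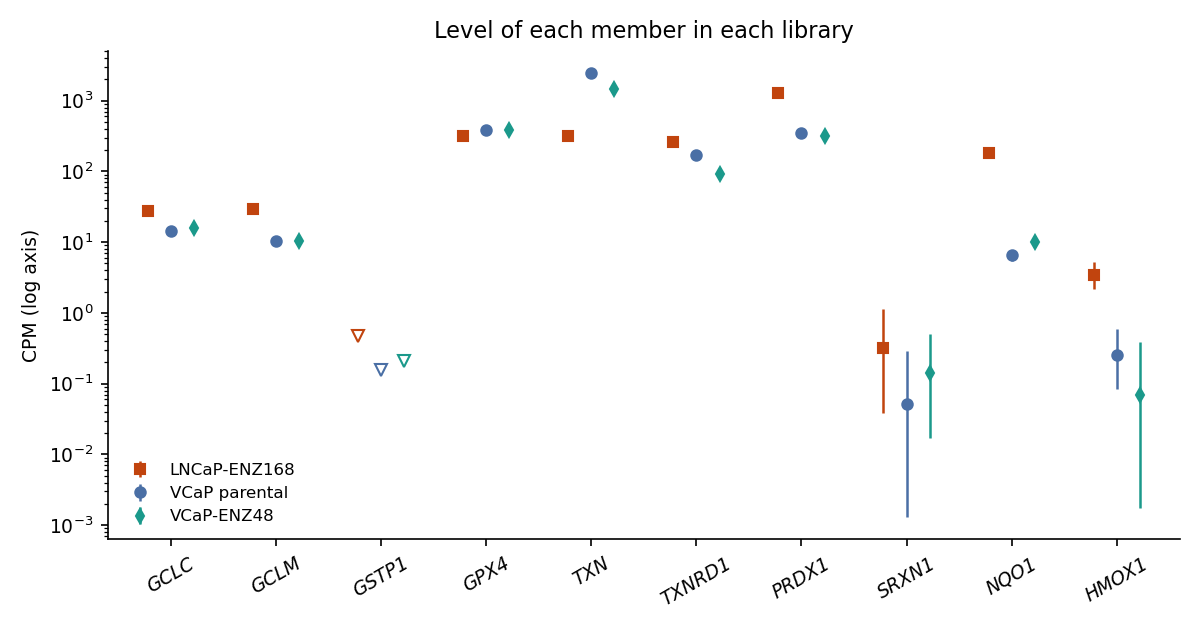
Level of each gene in each library, in CPM on a log axis. Points are the UMIs summed over kept cells and bars their exact Poisson 95% intervals, mostly smaller than the point. Open triangles mark GSTP1, which has no row, at the CPM that 3 counts would give. Squares (LNCaP-ENZ168) lie far above the VCaP points for NQO1 (182 CPM) and far below them for TXN (318 CPM). Levels of different genes are not compared.

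GSTP1 (GRCh38 chromosome 11, 67583742 to 67586656, plus strand) joins glutathione to reactive chemicals. It had no row in any of the 3 files and was counted as 0 UMIs throughout. If the row is missing because no UMI was counted, its level is at most 0.475 CPM in LNCaP–ENZ168, 0.154 CPM in VCaP parental and 0.21 CPM in VCaP–ENZ48, taking 3 counts as the limit that a count of 0 allows. No fold was formed, since all libraries are at 0. An absent row was not peculiar to GSTP1. Of 20046 protein-coding genes in Gencode v44, 4169 had no row by that name in any file, and among 102 other genes of these pathways 7 had none. One of the 7 was SOD2, the mitochondrial superoxide dismutase that most cells make. SOD2 overlaps 3 genes on its own strand in that annotation, and GSTP1 overlaps none. Whether silence, counting or annotation left GSTP1 without a row was not tested.

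Both subunits of the first enzyme of glutathione synthesis were higher in the LNCaP library. GCLC (chromosome 6, 53497341 to 53616970, minus strand), the catalytic subunit, was at 27.9 CPM (23.9 to 32.3, the 95% interval, from 176 UMIs) in LNCaP–ENZ168, 14.5 CPM (12.9 to 16.3, 283 UMIs) in VCaP parental and 15.7 CPM (13.7 to 17.9, 224 UMIs) in VCaP–ENZ48. GCLM (chromosome 1, 93885199 to 93909456, minus strand), the modifier subunit, was at 29.6 CPM (25.5 to 34.2, 187 UMIs), 10.6 CPM (9.16 to 12.1, 206 UMIs) and 10.6 CPM (8.94 to 12.4, 151 UMIs). For both, the LNCaP interval lay above both VCaP intervals, and the VCaP intervals overlapped. Set against VCaP–ENZ48, LNCaP–ENZ168 had a log2 ratio of 0.79 (0.54 to 1.12) for GCLC and of 1.41 (1.17 to 1.81) for GCLM. Relative to the median of all genes these ratios were 0.14 and 0.75, so GCLC lay close to the middle of the transcriptome. Over VCaP parental the ratios were 0.90 (0.66 to 1.22) for GCLC and 1.41 (1.195 to 1.78) for GCLM. Among barcodes not ending in N GCLC was at 1.19 over VCaP parental, past 2-fold. Under TMM scaling GCLM had 0.90 over VCaP–ENZ48 and 0.63 over VCaP parental and GCLC 0.28 and 0.12, all under 2-fold. Between the VCaP libraries they were 0.10 (-0.15 to 0.37) and 0.00033 (-0.31 to 0.31), and -0.17 and -0.27 under TMM scaling. In the least cycling cells alone GCLM had a VCaP ratio of 0.72, on 11 UMIs in VCaP parental. GCLC overlaps a noncoding gene on its own strand, and its counts could be divided with it.

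GPX4 (chromosome 19, 1103982 to 1106791, plus strand), a selenoprotein that uses glutathione to reduce lipid peroxides in membranes, was at 313 CPM (299 to 327, 1975 UMIs) in LNCaP–ENZ168, 383 CPM (374 to 392, 7475 UMIs) in VCaP parental and 391 CPM (380 to 401, 5586 UMIs) in VCaP–ENZ48. The VCaP libraries overlapped and LNCaP–ENZ168 was lower than both. Its log2 ratio between the VCaP libraries was 0.03 (-0.02 to 0.08), and it was of the other sign under 4 of 13 alternatives. LNCaP–ENZ168 over VCaP–ENZ48 gave -0.32 (-0.40 to -0.25), and over VCaP parental -0.29 (-0.36 to -0.22). Over VCaP parental it was -1.11 under TMM scaling and -1.01 under median-of-ratios scaling, past 2-fold. Against the median of all genes these came to -0.97 and -0.87, and 18.9% and 22.7% of the genes tested had a lower ratio.

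TXN and its reductase differed in opposite directions between LNCaP–ENZ168 and VCaP–ENZ48 and in the same direction within VCaP. TXN (chromosome 9, 110243810 to 110256507, minus strand) was at 318 CPM (304 to 332, 2009 UMIs) in LNCaP–ENZ168, 2443 CPM (2422 to 2465, 47684 UMIs) in VCaP parental and 1458 CPM (1439 to 1478, 20858 UMIs) in VCaP–ENZ48. All 3 intervals were apart, with VCaP parental highest and LNCaP–ENZ168 lowest. TXNRD1 (chromosome 12, 104215779 to 104350307, plus strand), the selenoprotein that reduces TXN with NADPH, was at 265 CPM (252 to 278, 1672 UMIs), 168 CPM (163 to 174, 3284 UMIs) and 91.9 CPM (87.0 to 97.1, 1315 UMIs). Here LNCaP–ENZ168 was highest and VCaP–ENZ48 lowest, again with no overlap. From VCaP parental to VCaP–ENZ48 the log2 ratio was -0.74 (-0.77 to -0.72) for TXN and -0.86 (-0.97 to -0.78) for TXNRD1. Relative to the median they were -0.68 and -0.80, and 12.1% and 9.13% of the genes tested had a lower ratio. Under TMM scaling the ratios were -1.03 and -1.15, past 2-fold.

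Between the lines TXN had the lowest ratio of the members. LNCaP–ENZ168 over VCaP–ENZ48 gave -2.19 (-2.26 to -2.13), a level 4.58-fold lower, and LNCaP–ENZ168 over VCaP parental gave -2.94 (-3.01 to -2.88), a level 7.68-fold lower. Only 5.99% and 2.35% of the genes tested lay below it. For TXNRD1 the same comparisons gave 1.52 (1.42 to 1.63) and 0.65 (0.57 to 0.74). The second of these was 0.08 above the median of all genes, and it turned negative under TMM scaling (-0.17) and median-of-ratios scaling (-0.071). TXNRD1 overlaps the coding gene EID3 on its own strand.

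PRDX1 (chromosome 1, 45510914 to 45542732, minus strand) removes hydrogen peroxide with electrons from TXN. It was at 1268 CPM (1240 to 1296, 8006 UMIs) in LNCaP–ENZ168, 350.1 CPM (342 to 359, 6833 UMIs) in VCaP parental and 318 CPM (309 to 328, 4551 UMIs) in VCaP–ENZ48. The LNCaP library was high and the VCaP libraries low, with no overlap among the 3. The log2 ratio was 1.99 (1.94 to 2.05) over VCaP–ENZ48 and 1.85 (1.81 to 1.90) over VCaP parental, and 1.34 and 1.28 relative to the median. Between the VCaP libraries it was -0.14 (-0.19 to -0.08), or -0.071 relative to the median. In LNCaP–ENZ168, where TXN was lowest, PRDX1 was thus 3.99-fold its level in VCaP–ENZ48. Its 3′ end overlaps MMACHC on the other strand, and whether the counting used strand is not given in the sources used here. SRXN1 (chromosome 20, 646615 to 653200, minus strand), which repairs overoxidised peroxiredoxins, had 2, 1 and 2 UMIs in the same order, at or under the limit of a count of 0. It lies within a longer coding gene on its own strand, so its UMIs may have been dropped as ambiguous, and no fold was formed.

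NQO1 and HMOX1, the textbook indicators of NRF2 activity, were both highest in LNCaP–ENZ168. NQO1 (chromosome 16, 69706996 to 69726668, minus strand), a quinone reductase, was at 182 CPM (172 to 193, 1149 UMIs) in LNCaP–ENZ168, 6.51 CPM (5.43 to 7.74, 127 UMIs) in VCaP parental and 10.1 CPM (8.49 to 11.9, 144 UMIs) in VCaP–ENZ48. The intervals did not overlap. LNCaP–ENZ168 over VCaP–ENZ48 gave a log2 ratio of 4.05 (3.92 to 4.44), an 18.1-fold higher level, and LNCaP–ENZ168 over VCaP parental gave 4.61 (4.54 to 5.08), a 28.0-fold higher level. In these comparisons 98.7% and 99.1% of the genes tested had a lower ratio. Over VCaP parental, NQO1 reached the mean of 10 CPM only through the LNCaP library. Within VCaP its ratio was 0.56 (0.28 to 0.99), or 0.63 relative to the median, and among barcodes not ending in N it was 1.23. A noncoding gene overlaps it on the other strand.

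HMOX1 (chromosome 22, 35380361 to 35394214, plus strand), which breaks down heme, was near the detection limit. It was at 3.48 CPM (2.184 to 5.28, 22 UMIs) in LNCaP–ENZ168, 0.256 CPM (0.0832 to 0.598, 5 UMIs) in VCaP parental and 0.0699 CPM (0.00177 to 0.39, 1 UMI) in VCaP–ENZ48. LNCaP–ENZ168 was high and the VCaP libraries overlapped. Over VCaP parental its level was 13.6-fold higher, with a counting interval of 5.03 to 46.0. Over VCaP–ENZ48 the ratio of levels was 49.8 (8.06 to 2057).

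**Figure D2:**
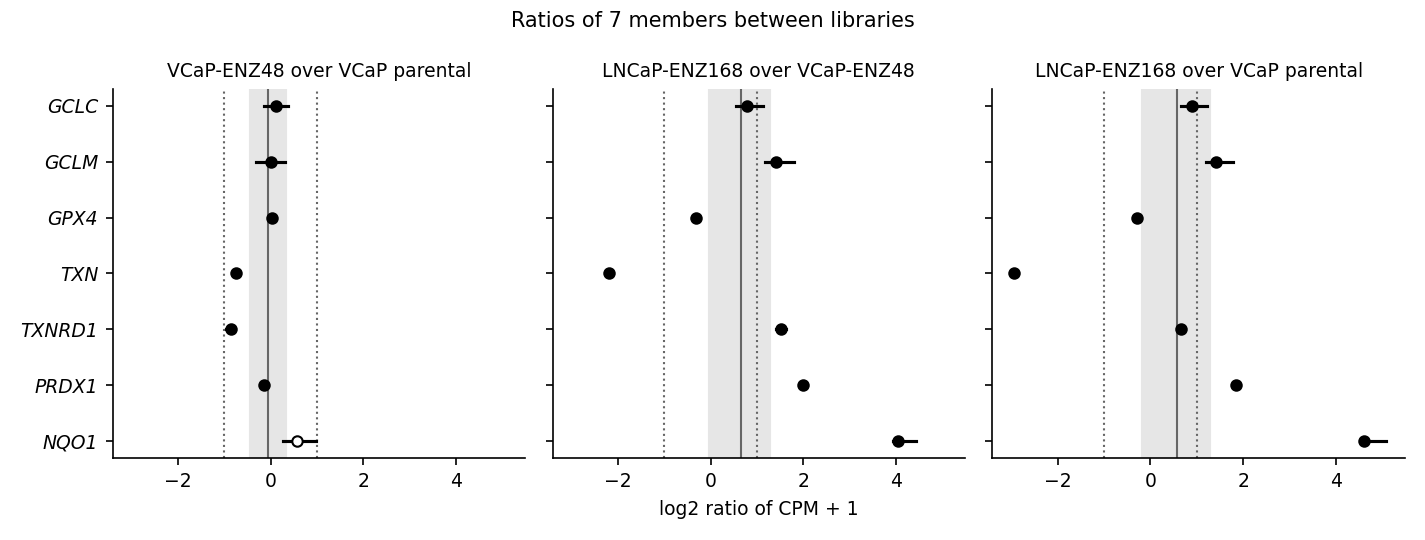
Log2 ratios of CPM + 1 for 7 members in the 3 comparisons, with exact conditional 95% intervals. The gray band spans the quartiles and the gray line the median of all genes tested, and dotted lines mark 2-fold. The open point (NQO1 in the VCaP pair) fell under the mean of 10 CPM. Between the lines TXN and GPX4 lie left of the band and NQO1, PRDX1 and GCLM right of it, as does TXNRD1 over VCaP-ENZ48 only. GSTP1, SRXN1 and HMOX1 are left out for want of counts.

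Of the 10 members, 6 passed the mean of 10 CPM in the VCaP pair and 7 in each comparison between the lines, the added one being NQO1. In the VCaP pair 0 were past 2-fold in either direction, against 8.19% higher and 6.77% lower of all genes. LNCaP–ENZ168 over VCaP–ENZ48 had 4 higher (NQO1, PRDX1, TXNRD1 and GCLM) and 1 lower (TXN), against 35.5% and 11.1% of all genes. LNCaP–ENZ168 over VCaP parental had 3 higher (NQO1, PRDX1 and GCLM) and 1 lower (TXN), against 33.6% and 10.8% of all genes. It had 4 higher with GCLC among barcodes not ending in N. With 7 members, these counts were not tested against the shares. The members' median log2 ratio was -0.069, 1.41 and 0.90, against -0.066, 0.65 and 0.57 for all genes. GSTP1, SRXN1 and HMOX1 passed the minimum in none, and these counts describe the rest only.

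The share of cells with a UMI mostly had the order of the levels. Cells were thinned to 2000 UMIs so that libraries of different depth could be compared, which left out 1 cell of LNCaP–ENZ168, 0 of VCaP parental and 30 of VCaP–ENZ48. NQO1 was seen in 31.4% of LNCaP–ENZ168 cells (Clopper-Pearson 95% interval 28.4 to 34.5%), 0.802% of VCaP parental cells (0.347 to 1.57%) and 2.73% of VCaP–ENZ48 cells (1.77 to 3.998%). Without thinning the shares were 61.0, 12.0 and 12.9%. TXN was seen in 41.8% (38.6 to 45.0%), 98.8% (97.9 to 99.4%) and 90.3% (88.2 to 92.1%), and in 70.1, 100.0 and 98.0% without thinning. TXN was thus found in nearly every VCaP cell and NQO1 in few of them.

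TXNRD1 was seen in 38.0% (34.9 to 41.1%), 29.6% (26.8 to 32.5%) and 17.2% (14.8 to 19.8%) of thinned cells. Without thinning VCaP parental came first for TXNRD1, with 91.7% against 74.5% and 59.5%, and it had the highest median depth. PRDX1 was seen in 89.8% (87.7 to 91.7%), 49.7% (46.6 to 52.9%) and 45.3% (42.0 to 48.5%), and in 99.0, 99.0 and 87.0% without thinning. GPX4 was seen in 44.9% (41.6 to 48.1%), 52.5% (49.3 to 55.6%) and 53.4% (50.1 to 56.7%), and in 77.3, 99.4 and 89.9% without thinning. The PRDX1 and GPX4 intervals overlapped between the VCaP libraries and not with LNCaP–ENZ168.

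GCLM was seen in 5.41% (4.05 to 7.05%), 1.91% (1.15 to 2.96%) and 2.29% (1.42 to 3.48%), and GCLC in 5.30% (3.96 to 6.93%), 3.11% (2.12 to 4.38%) and 3.27% (2.22 to 4.64%). The GCLC intervals of all 3 libraries overlapped. Unthinned, GCLM was in 16.3, 17.1 and 13.0% of cells and GCLC in 13.5, 24.1 and 18.6%. HMOX1 was seen in 9, 2 and 0 thinned cells and SRXN1 in 1, 0 and 0, and 0 of 917 cells allows a share of thinned cells with a UMI of up to 0.327%, taking 3 counts as the limit. Before thinning, VCaP–ENZ48 had 1 HMOX1 UMI and 2 SRXN1 UMIs. Every library holds cells of 1 line, so no cell type that lacks these genes was there to measure free RNA in the droplets, and its part in the low shares was not tested.

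**Figure D3:**
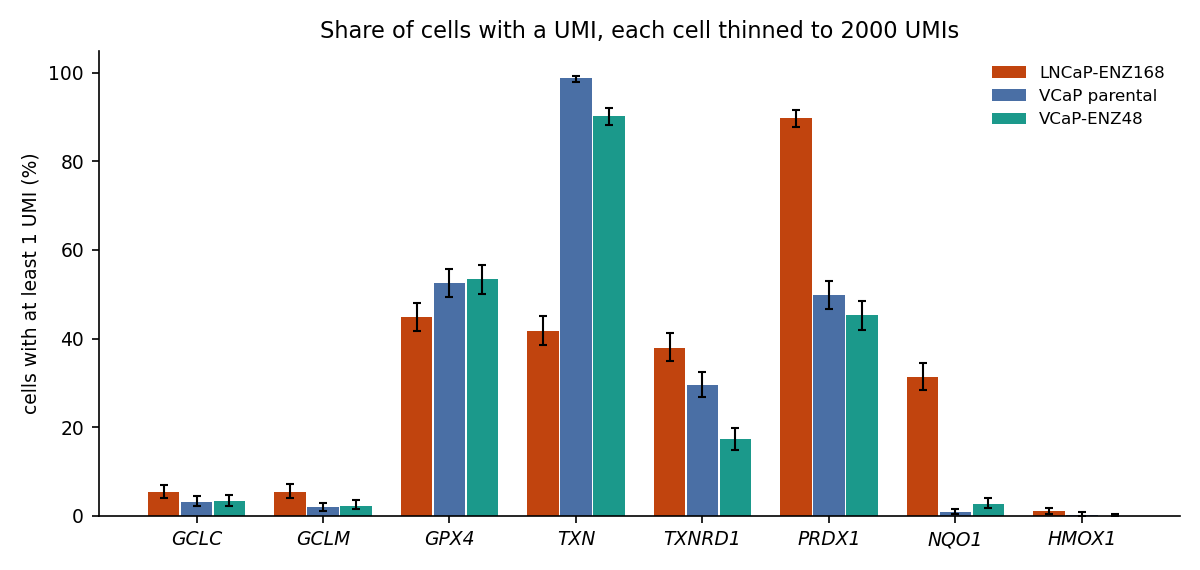
Share of cells with at least 1 UMI after each cell was thinned to 2000 UMIs, with Clopper-Pearson 95% intervals. TXN reaches 98.8% in VCaP parental and 41.8% in LNCaP-ENZ168, NQO1 31.4% in LNCaP-ENZ168 and under 3% in both VCaP libraries.

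Within a library the spread of the more abundant members over cells lay under the 95th percentile of all genes. TXN was above the median gene in each library. The variance of thinned UMIs over their mean was 1.14 for NQO1, 1.09 for TXNRD1, 1.25 for TXN, 1.195 for PRDX1 and 1.07 for GPX4 in LNCaP–ENZ168. The median over 3885 genes with a mean of at least 0.1 UMIs per thinned cell was 1.05 there, and the 95th percentile 1.33. TXN gave 1.18 in VCaP parental and 1.36 in VCaP–ENZ48. The medians over all such genes were 1.03 and 1.06 there, and the 95th percentiles 1.31 and 1.51. At least 2 TXN UMIs were found in 94.1% of thinned VCaP parental cells, 69.2% of VCaP–ENZ48 cells and 12.7% of LNCaP–ENZ168 cells. At least 2 NQO1 UMIs were found in 6.999% of LNCaP–ENZ168 cells and in 0 cells of either VCaP library.

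Members seen in at least 10% of cells hardly varied together from cell to cell. Pearson's r across 943 thinned cells of LNCaP–ENZ168 ran from -0.052 to 0.11 over 10 pairs, with a median of 0.00072. It ran from -0.0034 to 0.087 over 6 pairs in VCaP parental and from 0.0041 to 0.13 over 6 pairs in VCaP–ENZ48. TXN and GPX4 made the highest pair in LNCaP–ENZ168 and VCaP–ENZ48. The genes most like TXN across cells were those of ribosomal proteins, RPLP1 (r = 0.34), RPL26 (0.33) and RPL23 (0.31) in LNCaP–ENZ168 and RPL27 (0.30), RPL12 (0.28) and RPS18 (0.28) in VCaP–ENZ48. GPX4 had RPL27 (0.22), NDUFA4 (0.21) and RPLP1 (0.20) in LNCaP–ENZ168. No gene reached 0.2 for TXNRD1 or PRDX1 in any library, for NQO1 in LNCaP–ENZ168, where alone it was seen in enough cells, or for the members compared in VCaP parental. These cells share library and thinned depth, and in counts this sparse weak correlations carry little.

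The libraries differed in cell cycle genes, and the members were therefore compared between cells of each library with more and fewer UMIs of 97 S and G2M phase genes. The dividing value was 4 UMIs per thinned cell, the median of VCaP–ENZ48. Above it were 78.7% of LNCaP–ENZ168 cells, 89.8% of VCaP parental cells and 37.8% of VCaP–ENZ48 cells. The members barely followed this split. TXN had log2 ratios of more over less cycling cells of 0.13 (-0.03 to 0.29) in LNCaP–ENZ168, 0.09 (0.05 to 0.14) in VCaP parental and 0.0016 (-0.04 to 0.04) in VCaP–ENZ48. TXNRD1 had 0.13 (-0.04 to 0.31), 0.18 (0.0059 to 0.36) and -0.04 (-0.20 to 0.13). In the least cycling cells alone the VCaP ratios of TXN and TXNRD1 were -0.66 and -0.69, little closer to 0 than in all cells. NQO1 had 0.07 (-0.14 to 0.28) in LNCaP–ENZ168, and its level was 175 CPM in the less cycling cells there.

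**Figure D4:**
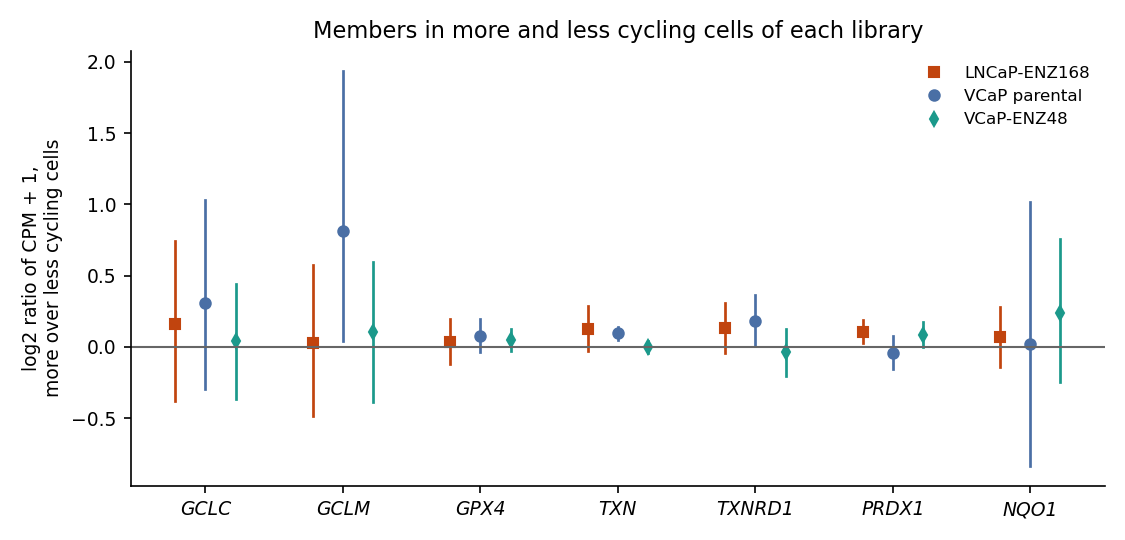
Log2 ratio of CPM + 1 in cells above over cells at or below 4 S and G2M phase UMIs, for 7 members in each library, with exact conditional 95% intervals. Apart from GCLM in VCaP parental (0.81, on 11 UMIs in the less cycling cells), the points lie between -0.04 and 0.31.

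Around the members stand 102 further genes of these pathways in 12 lists, of which 95 had a row. In the VCaP pair 62 reached the mean of 10 CPM, and 2 were at least 2-fold higher and 5 at least 2-fold lower, or 3.23% and 8.06%, against 8.19% and 6.77% of all genes. Between LNCaP–ENZ168 and VCaP–ENZ48, 34 of 71 were higher and 6 lower, or 47.9% and 8.45% against 35.5% and 11.1% of all genes. Between LNCaP–ENZ168 and VCaP parental, 33 of 71 were higher and 8 lower, or 46.5% and 11.3% against 33.6% and 10.8%. Among the genes that in both reached the minimum only through LNCaP–ENZ168 were TXNRD2, GPX8, GSTA1, GSR, SLC7A11, TRIM16, SEPSECS and PSTK. SEPHS2 and EEFSEC did so over VCaP parental, and ME1 over VCaP–ENZ48. The direction of such genes followed from the filter. GPX3 and AKR1C3 reached the minimum only through the VCaP libraries. All genes of the background passed the same filter. Under TMM scaling the counts were 1 higher and 10 lower of 62, 22 and 10 of 69, and 15 and 17 of 70, where the shares of all genes were 5.75% and 12.6%, 17.3% and 17.2%, and 12.4% and 26.4%. The genes past 2-fold named below kept their sign under all 4 scalings. Shifts of the size given above could hardly reverse a ratio past 2-fold, so this says little. Several of these genes fell under 2-fold. For LNCaP–ENZ168 over VCaP parental the lowest ratios were 0.25 for NFE2L1, 0.34 for NCOA4, 0.42 for TKT and 0.55 for LPCAT3.

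**Figure D5:**
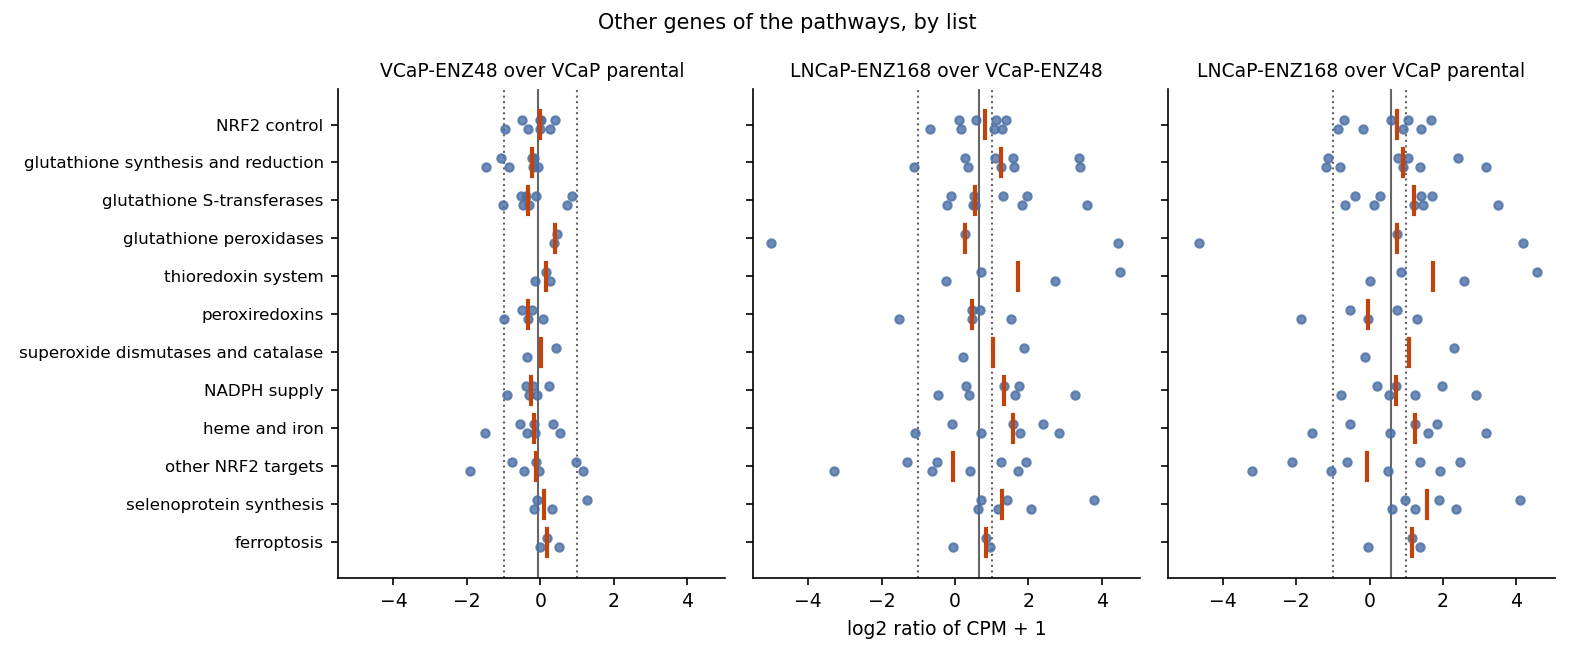
Log2 ratios of CPM + 1 of the other pathway genes whose mean was 10 CPM or more, by list. Each point is a gene, the red bar is the list's median, the gray line the median of all genes and dotted lines mark 2-fold. The leftmost point between the lines is GPX3, with 0 UMIs in LNCaP-ENZ168, so its place depends on the added 1 CPM.

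In the VCaP pair the genes past 2-fold came from 5 lists. CBR3, a carbonyl reductase and NRF2 target, was at 119.9 CPM in VCaP parental and 31.2 CPM in VCaP–ENZ48 (log2 ratio -1.91, interval -2.09 to -1.80). AKR1C3, a ketosteroid reductase that also makes androgens, went the other way, from 45.6 to 103 CPM (1.16, 1.06 to 1.304). The transferrin receptor TFRC was at 156 and 54.2 CPM (-1.51, -1.64 to -1.41). GLRX2, the mitochondrial glutaredoxin, was at 76.1 and 26.5 CPM (-1.49), GGCT, which degrades glutathione products, at 359 and 169.9 CPM (-1.08), and the microsomal transferase MGST1 at 416 and 204 CPM (-1.02). EEFSEC, the elongation factor for selenocysteine, was at 7.43 and 19.3 CPM (1.27), under the 20 CPM set for naming, and is named to complete the count. AKR1C3 has near-identical relatives among the AKR1C genes, with which reads can be exchanged.

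Genes that control NRF2 differed in both directions between the lines, and their median ratio was 0.81 over VCaP–ENZ48 and 0.75 over VCaP parental, against 0.65 and 0.57 for all genes. NFE2L2 itself was at 50.8 CPM in LNCaP–ENZ168, 26.6 in VCaP parental and 18.7 in VCaP–ENZ48, and its ratio over VCaP–ENZ48 was 1.40 (1.21 to 1.69). KEAP1, its inhibitor, was at 75.9, 28.2 and 34.3 CPM, and SQSTM1, which draws KEAP1 into autophagy, at 239.8, 74.6 and 98.6 CPM. NFE2L1, a relative of NRF2, had ratios of 1.05 and 1.06 over VCaP–ENZ48 and VCaP parental. Of 8 genes of this list tested, 4 were 2-fold higher over VCaP–ENZ48 and 3 over VCaP parental, against 35.5% and 33.6% of all genes, and 0 were lower in either. BACH1, a repressor that competes with NRF2, was at 18.7, 31.1 and 30.8 CPM, and RBX1, a part of the ligase that marks NRF2 for degradation, at 142, 259.7 and 132 CPM.

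Among the other genes of glutathione synthesis and reduction, the median ratio was 1.26 over VCaP–ENZ48 and 0.92 over VCaP parental, against 0.65 and 0.57 for all genes. Glutathione reductase (GSR) was at 58.8 CPM in LNCaP–ENZ168, 5.69 in VCaP parental and 4.61 in VCaP–ENZ48, with a ratio of 3.41 (3.29 to 4.07) over VCaP–ENZ48. SLC7A11, the cystine importer, was at 38.5, 6.51 and 2.80 CPM, with 3.38 (3.30 to 4.30), and its partner SLC3A2 at 184, 70.9 and 61.0 CPM. GLRX3 had 1.62 over VCaP–ENZ48. In this list 6 of 9 genes were higher and 1 lower over VCaP–ENZ48, against 35.5% and 11.1% of all genes. Over VCaP parental 4 were higher and 2 lower, against 33.6% and 10.8%. The lower ones were the glutaredoxins GLRX, at 23.1, 53.8 and 51.6 CPM, and, over VCaP parental, GLRX2 (-1.13).

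Other transferases and peroxidases differed in both directions. GSTA1 was at 26.1, 1.38 and 1.26 CPM, GSTM3 at 258, 94.03 and 65.0 CPM and GSTZ1 at 69.4, 20.8 and 19.0 CPM, in the order used above. Of 9 transferases 4 were higher over VCaP–ENZ48 and 5 over VCaP parental, against 35.5% and 33.6% of all genes, and 0 were lower. The GSTA and GSTM genes are families of close copies, so that reads can be divided among them. Among peroxidases, GPX8 of the endoplasmic reticulum had 178, 12 and 5 UMIs, a level 45.9-fold (25.6 to 90.4) that of VCaP parental. The secreted GPX3 had 0, 473 and 452 UMIs and was at least 51.0-fold lower than in VCaP parental and at least 66.5-fold lower than in VCaP–ENZ48, with the limit of 3 counts per library. The median of the 3 peroxidases is GPX1 with or without that bound (0.29 over VCaP–ENZ48, and -0.24 under TMM scaling).

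In the thioredoxin list 2 of 4 genes were higher and 0 lower in each comparison between the lines. Of all genes 35.5% were higher and 11.1% lower over VCaP–ENZ48, and 33.6% and 10.8% over VCaP parental. TXNRD2, the mitochondrial reductase, had 166 UMIs in LNCaP–ENZ168 and 3 in each VCaP library, ratios of 171 (57.5 to 838) and 125 (42.2 to 614) over VCaP parental and VCaP–ENZ48. TXNIP, which binds and inhibits thioredoxin, was at 333, 54.8 and 49.6 CPM, with 2.72 (2.62 to 2.87) over VCaP–ENZ48. TXNIP was thus highest in LNCaP–ENZ168, where TXN was lowest. PRDX6 was at 803, 325 and 276 CPM and PRDX5 at 279.9, 1023 and 809 CPM. Thus 1 of 5 peroxiredoxins was higher and 1 lower in each comparison between the lines, beside the same shares of all genes. Catalase (CAT) was at 178, 35.7 and 48.0 CPM.

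Among genes of NADPH supply the median ratio was 1.33 over VCaP–ENZ48 and 0.71 over VCaP parental. Malic enzyme ME1 was at 104.7, 13.2 and 9.93 CPM. PGD had 1.62 over VCaP–ENZ48 and TKT 1.24 over VCaP parental. In this list 4 and 3 of 7 genes were higher, against 35.5% and 33.6% of all genes, with 0 lower. Isocitrate dehydrogenase IDH1 was at 148, 257 and 206 CPM, lowest in LNCaP–ENZ168. Heme and iron genes had medians of 1.59 and 1.23. The biliverdin reductase BLVRB was at 234.6, 25.1 and 32.1 CPM, ferrochelatase (FECH) at 167, 46.1 and 30.9 CPM, and HMOX2, the constitutive heme oxygenase, at 86.2, 28.0 and 24.5 CPM. In that list 4 of 7 were higher and 1 lower in each comparison, beside the same shares of all genes. The lower gene was FTL (-1.09) over VCaP–ENZ48 and TFRC (-1.58) over VCaP parental.

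The remaining NRF2 targets did not share the direction of NQO1. Of 8 tested, 3 were higher and 2 lower over VCaP–ENZ48, against 35.5% and 11.1% of all genes. Over VCaP parental 3 were higher and 3 lower, against 33.6% and 10.8%. TRIM16 was at 22.02, 3.18 and 5.94 CPM and NQO2 at 68.0, 17.4 and 17.1 CPM, while AKR1C3 was at 9.66, 45.6 and 103 CPM and CBR3 at 12.0, 119.9 and 31.2 CPM. The list's median was -0.046 over VCaP–ENZ48, against 0.65 for all genes. Selenoprotein synthesis, which TXNRD1, TXNRD2 and GPX4 need, was higher in 4 of 6 genes in both comparisons and lower in 0. The same shares of all genes stand beside these counts. SEPSECS and PSTK reached the minimum only through LNCaP–ENZ168 in both comparisons, and SEPHS2 and EEFSEC did over VCaP parental. Their direction there followed from the filter. SEPHS2, selenophosphate synthetase, was at 173, 9.22 and 11.7 CPM, with 3.78 (3.65 to 4.13) over VCaP–ENZ48, and SEPSECS at 32.6, 5.64 and 7.06 CPM. TRNAU1AP had 1.41 over VCaP–ENZ48 and EEFSEC 1.89 over VCaP parental. Of 3 ferroptosis genes, 0 passed 2-fold over VCaP–ENZ48, and LPCAT3 (1.36) and NCOA4 (1.16) did over VCaP parental. Of all genes 35.5% and 33.6% were higher in these comparisons.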

How the data were processed

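Single cells were profiled by Drop-seq in 3 libraries. Alignment by the authors used STAR on GRCh38, and Drop-seq tools and Picard at default settings gave counts per Gencode gene. What was deposited is the raw UMI count of each gene in each barcode, for 1000 barcodes per library, the number of cells the authors expected, and no other cell filter is stated for these counts. Gene coordinates come from Gencode v44, a later version on the same build, and promoters from RefSeq.

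Cells were kept from 300 genes and 500 UMIs upward if mitochondrial UMIs made up 25% or less. Doublets were not identified, and an alternative dropped barcodes deeper than 3 times the median. UMIs were summed per library and scaled to CPM, which here means per 1000000 UMIs, with exact Poisson 95% intervals. Ratios are log2 ratios of CPM + 1 with exact conditional intervals, and shares have Clopper-Pearson intervals after thinning to 2000 UMIs. Depth sets their width. With 1 library per group, no test was made.

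The members, pathway lists and rules were chosen with earlier results of these data known. The 10 members were all named. Pathway genes were counted for naming at 20 CPM or more in a library and 2-fold or more, up to 3 per list and comparison. A gene that this rule would name is not reported here. Genes alike across cells needed r of at least 0.2 among genes seen in 10% of cells, and at most 3 were named. The ratio and interval steps were tested on simulated data. Alternatives covered the cell filter, barcodes, scaling, pseudocount, expression minimum, cycling cells and thinning. TMM factors came from edgeR 4.0.16 and the S and G2M genes from Seurat 5.3.0 in R 4.3.3. Other steps ran in Python 3.11.15 (scipy 1.17.1, numpy 2.4.6, matplotlib 3.10.9, pandas 2.3.3).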

Additional observations from a re-analysis of the deposited data

How the results depend on the processing

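No paired analysis was possible because there is 1 library in every group. Under TMM scaling the members past 2-fold were 0 higher and 2 lower in the VCaP pair, 2 higher for LNCaP–ENZ168 over VCaP–ENZ48 and 2 lower for LNCaP–ENZ168 over VCaP parental, and the members' medians were -0.35, 0.90 and 0.12. Under median-of-ratios scaling 1 was lower in the VCaP pair and 2 were lower for LNCaP–ENZ168 over VCaP parental, with medians of -0.29, 0.93 and 0.21. Without mitochondrial and ribosomal protein genes the medians of the VCaP pair and of LNCaP–ENZ168 over VCaP–ENZ48 were 0.13 and 1.16. A pseudocount of 5 gave 1.15 for the latter. A minimum of 1 CPM gave 0.00033 in the VCaP pair, and a minimum of 50 CPM gave -0.44 there and 0.65 for LNCaP–ENZ168 over VCaP parental, since other members were tested. In all, 33 alternative medians stayed within the range of the members' intervals and 85 alternative counts within 1.5 times. No alternative reversed a member's ratio past 2-fold. Relative to the median of all genes, NQO1, PRDX1, TXN, TXNRD1, GCLM and GCLC kept their sign under all 4 scalings in every comparison. Scaling a whole library by a common factor moves a gene's ratio and the median nearly alike, so such scalings could hardly change these signs. A minimum of 1000 UMIs kept the same cells. Depth limits HMOX1 and SRXN1 most, with at most 22 UMIs in a library. The scalings of the other pathway genes were added after seeing the data.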
